A study of Rattus norvegicus with 5 samples.

Results

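The transcripts of 9 genes used as markers of astrocytes were followed through laser-captured neurons of the rat striatum: Gfap, Aqp4, Slc1a2, Slc1a3, Aldoc, Glul, Clu, Gja1 and S100b. These 9 genes, of 32285 counted, were taken from a fixed list of symbols. All 9 were found in the authors' deposited comparison and were tested, none being lost to the filter on low counts. The rats carried no genetic change named in the labels; age, sex, strain, and the number of animals or cells behind each library are not stated in the labels. Striatomesencephalic neurons, the direct pathway cells that project to the midbrain, gave 2 libraries. Striatopallidal neurons, the indirect pathway cells that project to the pallidum, gave 3. All 5 libraries share the labelling of neurons by retrograde tracer, the laser capture and an amplification kit made for single cells. Separate animals are not named for the libraries, so p-values measure only the spread between these libraries, which may be technical.

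Astrocytes are the glial cells that clear transmitter from synapses, buffer potassium, move water along vessels and supply neurons with glutamine and fuel. Their fine processes wrap the synapses and cell bodies of striatal neurons. Gfap encodes the filament protein of the astrocyte skeleton and is the classic marker of reactive astrocytes. Resting grey matter astrocytes, including those of the striatum, can hold little of it while being rich in glutamate transporters and connexin. Several of the other genes, such as Clu, Aldoc and Slc1a2, can also be transcribed by neurons. The question put to the data was whether Gfap followed the rest of the astrocyte transcripts across the 2 neuron types.

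The bases before the start site are shown for the gene that stood apart, Gfap, and for Slc1a3 and S100b, the pair with the most similar values over the libraries. Each run holds the 250 bases before a start from RefSeq, build GRCr8, which is a later build than that of the counts. Capitals mark CCAAT or its reverse complement ATTGG.
Gfap (chr10:88361662-88361911, minus strand): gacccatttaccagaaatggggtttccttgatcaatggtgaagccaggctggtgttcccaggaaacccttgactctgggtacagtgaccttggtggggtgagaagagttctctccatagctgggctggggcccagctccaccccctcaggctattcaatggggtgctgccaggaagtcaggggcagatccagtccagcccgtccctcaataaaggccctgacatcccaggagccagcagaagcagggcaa
Slc1a3 (chr2:59557809-59558058, minus strand, the first of 3 listed starts): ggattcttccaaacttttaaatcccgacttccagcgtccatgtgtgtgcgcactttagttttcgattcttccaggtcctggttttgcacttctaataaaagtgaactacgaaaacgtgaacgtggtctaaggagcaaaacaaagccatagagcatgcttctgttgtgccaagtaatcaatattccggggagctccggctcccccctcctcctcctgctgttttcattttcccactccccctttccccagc
S100b (chr20:12381082-12381331, minus strand): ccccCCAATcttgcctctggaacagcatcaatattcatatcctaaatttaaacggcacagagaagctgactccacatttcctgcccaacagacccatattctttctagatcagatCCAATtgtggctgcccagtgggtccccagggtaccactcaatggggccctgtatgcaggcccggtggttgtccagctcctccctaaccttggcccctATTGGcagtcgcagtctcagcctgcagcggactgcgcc
Starts were listed for 8 of the 9 genes, Clu having no entry. In these windows 4 motifs were searched on both strands. Over 33465 windows of this length, the TATA box TATAAA was held by 12.9% and the CCAAT box CCAAT by 34.0%. The AP-1 motif TGANTCA was held by 6.34%. The STAT motif TTCNNNGAA was held by 7.67%. None of the 4 was found in the windows of Gfap and Slc1a3, and S100b held CCAAT or ATTGG at 3 places. A match is a description of letters and not a binding site.

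Library totals ran from 20845178 to 24805062 counts, and 3 counts, taken as the detection floor, stood for 0.121 to 0.144 CPM (read counts relative to the total of their library). This floor covers counting error only, since reads carried no molecular identifiers. The neuron labels could be checked against Drd1, Drd2 and Penk, whose groups did not overlap. Drd1 stood at 861 and 1084 CPM in striatomesencephalic and at most 582 CPM in striatopallidal libraries, Drd2 at 144 and 110.0 against at least 391 CPM, and Penk at 261 and 361 against at least 1259 CPM. Striatopallidal replicate 2 stood apart from the other libraries. Its chi-square values per degree of freedom against them ran from 540 to 621, while the other pairs ran from 174 to 314. Its scaling factor (trimmed mean of M-values, TMM) was 0.774, against 1.02 to 1.14 in the others, so its scaled values exceed its plain CPM. Over 13811 genes tested, edgeR's quasi-likelihood test called 0 genes at an adjusted p under 0.05 (0%), while 839 genes (6.07%) had an unadjusted p under 0.05. DESeq2 called 219 of the 13187 genes it gave an adjusted p (1.66%). Of the 13811 genes, the exact test of edgeR called 45 (0.326%) and limma voom 0 (0%).

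Gfap was low in both striatomesencephalic libraries and far higher in all 3 striatopallidal libraries, while none of the other 8 astrocyte transcripts had a log2 fold change beyond 0.98 in either direction. Gfap had 239 and 87 counts in striatomesencephalic replicates 1 and 2, against 5786, 4344 and 1965 counts in striatopallidal replicates 1, 2 and 3. As TMM-scaled CPM these were 10.98 and 3.78 against 213, 226 and 82.4. The groups did not overlap, and the lowest striatopallidal library was well above the highest striatomesencephalic one. Group means were 7.38 ± 5.09 scaled CPM (SD, n = 2) and 174 ± 79.7 scaled CPM (SD, n = 3), a 23.6-fold ratio. Within a group the libraries differed too, by 2.90-fold between the striatomesencephalic and by up to 2.75-fold between the striatopallidal libraries.

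The log2 fold change of Gfap, striatomesencephalic minus striatopallidal, was -4.56 ± 0.82 (SE), with an unadjusted 95% interval from -6.50 to -2.62. It did not pass over all genes with edgeR's quasi-likelihood test (adjusted p = 0.779), where it ranked 11 of 13811 genes by p and 312 by the size of the fold change. DESeq2 gave it an adjusted p of 5.84e-06 and the exact test of edgeR an adjusted p of 0.00325, while limma voom gave an adjusted p of 0.978. Gfap was the only one of the 9 genes called by either of the first pair of tools. In the authors' deposited table, whose fold change runs the other way, Gfap had a log2 fold change of 4.58 with an adjusted p of 0.927, rank 28 of 12054 by p. Leaving out single libraries moved the log2 fold change between -5.52, without striatomesencephalic replicate 1, and -3.98, without striatomesencephalic replicate 2. In bulk libraries such as these, fewer astrocytes and less RNA per astrocyte cannot be told apart.

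**Figure D1:**
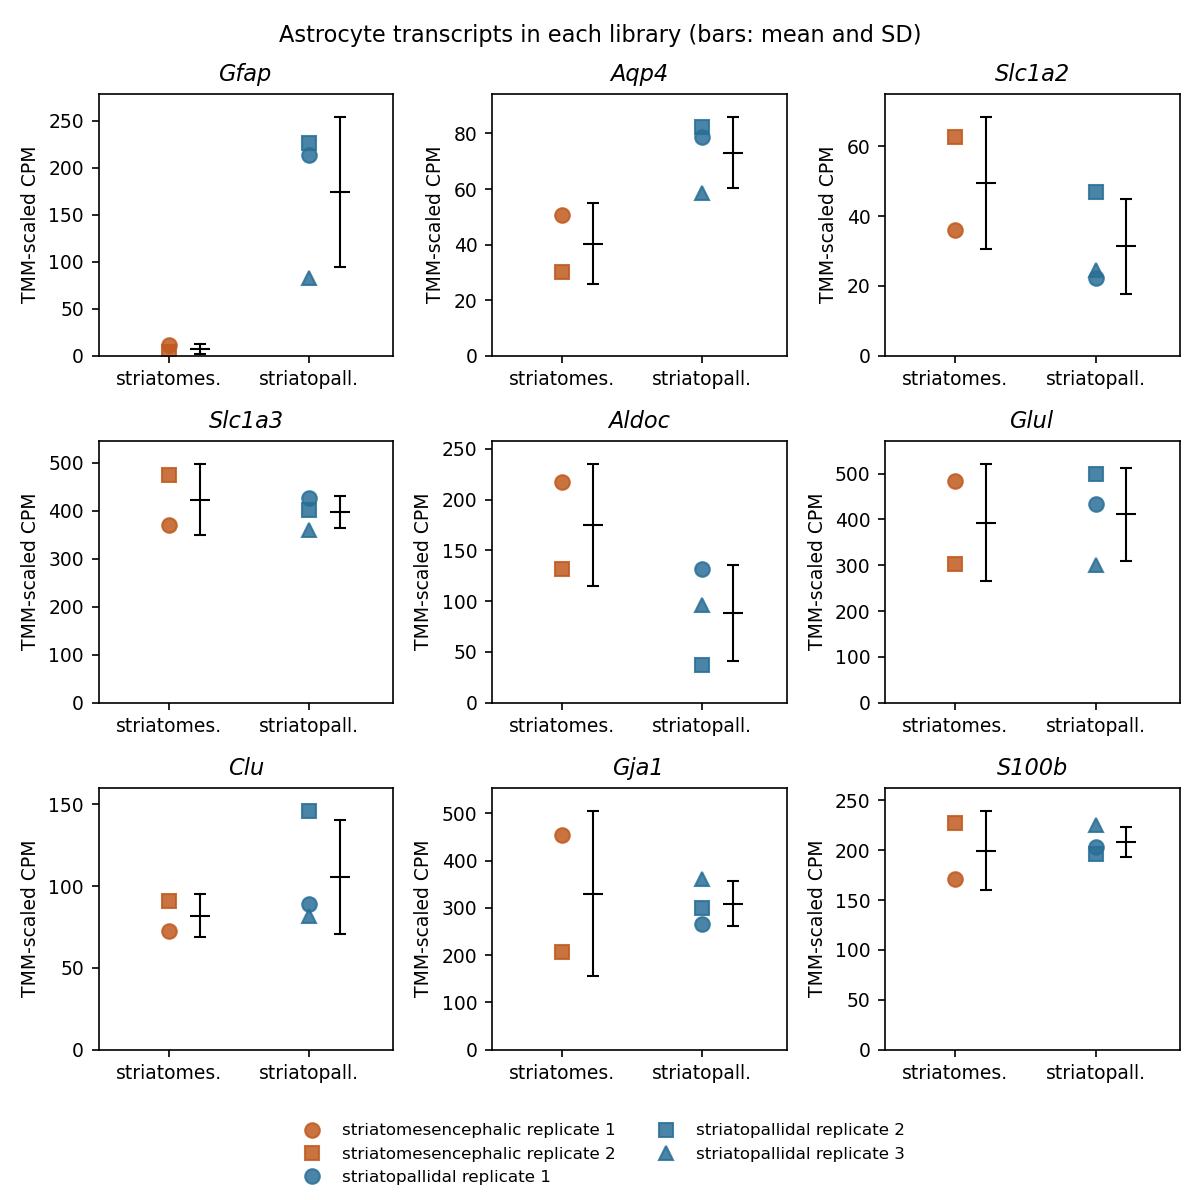
TMM-scaled CPM (vertical axes, each starting at 0) of the 9 astrocyte transcripts in the 2 striatomesencephalic and 3 striatopallidal libraries, 1 panel a gene, with points for libraries and black bars for the mean and SD. Gfap lies at 3.78 and 10.98 in striatomesencephalic libraries and between 82.4 and 226 in striatopallidal libraries.

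Aqp4, the water channel of astrocyte endfeet, and Gja1, the connexin of their gap junctions, are the membrane channel genes of the group. Aqp4 stood at 50.7 and 30.0 scaled CPM in striatomesencephalic libraries against 78.6, 82.2 and 58.6 scaled CPM in striatopallidal libraries. Its groups did not overlap, in the same direction as Gfap but at a much smaller size. Its log2 fold change was -0.86 ± 0.54 (SE; interval -2.14 to 0.42) and did not pass with edgeR (adjusted p = 0.804). Without striatomesencephalic replicate 2 it was -0.52. Gja1 stood at 453 and 207 against 267, 299 and 362 scaled CPM. Both its highest and its lowest value were striatomesencephalic, so the groups overlapped fully. Its log2 fold change was 0.10 ± 0.43 (SE; interval -0.93 to 1.12; edgeR adjusted p = 0.986), and its sign changed between settings, reaching -0.57 without striatomesencephalic replicate 1 and 0.56 without striatomesencephalic replicate 2.

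Slc1a2 and Slc1a3 encode the transporters GLT-1 and GLAST, which take up synaptic glutamate. Slc1a2 stood at 36.0 and 62.8 scaled CPM in striatomesencephalic libraries against 22.3, 47.0 and 24.7 scaled CPM in striatopallidal libraries. The groups overlapped on this scale, through striatopallidal replicate 2, and did not overlap in plain CPM, where that library stood at 36.4 and the lower striatomesencephalic one at 37.6. The log2 fold change was 0.66 ± 0.65 (SE; interval -0.87 to 2.18; edgeR adjusted p = 0.871), of opposite sign to that of Gfap, and 0.20 without striatomesencephalic replicate 2. Slc1a3 had the narrowest range of the 9 genes on the scaled values, at 371 and 475 against 427, 403 and 361 scaled CPM. In plain CPM the narrowest range of log2(CPM + 1) was that of Clu, at 0.56, against 0.64 for Slc1a3. The highest scaled value of Slc1a3 exceeded its lowest by 1.32-fold. Its log2 fold change of 0.09 ± 0.32 (SE) had an interval from -0.67 to 0.85 (edgeR adjusted p = 0.975), which leaves out changes as large as that of Gfap.

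Glul encodes glutamine synthetase, which turns the glutamate taken up into glutamine, and Aldoc encodes aldolase C, a glycolytic enzyme. Glul stood at 483 and 303 scaled CPM in striatomesencephalic against 433, 500 and 300 scaled CPM in striatopallidal libraries. The groups overlapped, with a high and a low library in each. Its log2 fold change was -0.065 ± 0.39 (SE; interval -0.99 to 0.86; edgeR adjusted p = 0.991), and its sign turned with the settings. Aldoc stood at 217 and 132 against 131, 37.5 and 96.5 scaled CPM. It was lowest in striatopallidal replicate 2, and the groups were separated only by the gap between 132 and 131. In plain CPM they overlapped, striatomesencephalic replicate 2 having 134.5 and striatopallidal replicate 1 having 149. The log2 fold change was 0.98 ± 0.60 (SE; interval -0.44 to 2.40; edgeR adjusted p = 0.799), which was 0.61 without striatopallidal replicate 2 and 0.58 without striatomesencephalic replicate 1.

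Clu encodes clusterin, a secreted chaperone that binds lipids, and S100b a calcium-binding protein that astrocytes release. Clu stood at 72.8 and 91.1 scaled CPM in striatomesencephalic against 89.3, 146 and 81.6 scaled CPM in striatopallidal libraries. Only striatopallidal replicate 2 lay outside the range of the rest by a wide margin. The log2 fold change was -0.36 ± 0.49 (SE; interval -1.51 to 0.78; edgeR adjusted p = 0.920) and shrank to -0.069 without that library. S100b stood at 172 and 227 against 203, 196 and 225 scaled CPM, the striatopallidal values lying inside the striatomesencephalic range. Its log2 fold change was -0.063 ± 0.37 (SE; interval -0.93 to 0.81; edgeR adjusted p = 0.991).

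In scaled CPM the groups did not overlap for 3 of the 9 genes (Gfap, Aqp4 and Aldoc), where 21.6% of all genes tested did not overlap. In plain CPM there were again 3 (Gfap, Aqp4 and Slc1a2), against 21.1% of all genes. At an unadjusted p under 0.05 there was 1 gene of the 9, Gfap, and 3.14% of all genes passed that limit in its direction. The other 8 genes were divided evenly, 4 with a positive and 4 with a negative log2 fold change, and had a median of 0.015. The median over all genes tested was -0.059.

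**Figure D2:**
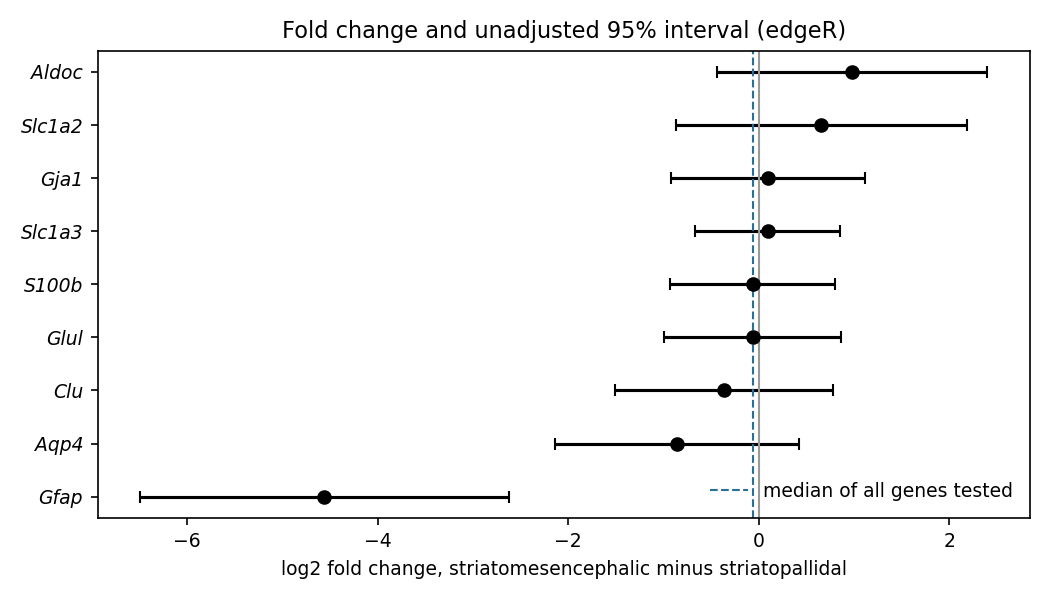
Log2 fold change, striatomesencephalic minus striatopallidal (horizontal axis), of each of the 9 genes (vertical axis), with points for edgeR's estimate and bars for the unadjusted 95% interval. The interval of Gfap runs from -6.50 to -2.62, while those of the other 8 genes include 0.

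Gfap was then set against the other 8 transcripts inside each library, which removes the library scaling. The summed plain CPM of the other 8 was 1938 and 1557 in striatomesencephalic and 1878, 1323 and 1605 in striatopallidal libraries, or 1747 ± 269.5 (SD, n = 2) and 1602 ± 278 (SD, n = 3). These sums overlapped between the groups, whereas the Gfap values did not. Gfap made up 0.588% of the counts of the 9 genes in striatomesencephalic replicate 1 (95% Wilson interval 0.518% to 0.667%) and 0.247% in replicate 2 (0.200% to 0.304%). In striatopallidal replicates 1, 2 and 3 it made up 11.4% (11.2% to 11.7%), 11.7% (11.4% to 12.02%) and 5.18% (4.96% to 5.41%). The intervals cover counting error only, and the shares depend on transcript length, so they compare libraries and not genes. No striatomesencephalic share came near a striatopallidal one.

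On the log2 scale, Gfap minus the median of the other 8 was -4.14 and -5.45 in striatomesencephalic libraries and 0.38, 0.42 and -0.84 in striatopallidal libraries. The difference of the group means was -4.78, given as a description without a test. It was -4.68 with the sum of the other 8 as the reference and -4.41 with the sum of 37 further astrocyte genes. Taking each of the other genes in turn against its own 8 companions gave differences from -0.83 for Aqp4 to 1.67 for Aldoc.

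**Figure D3:**
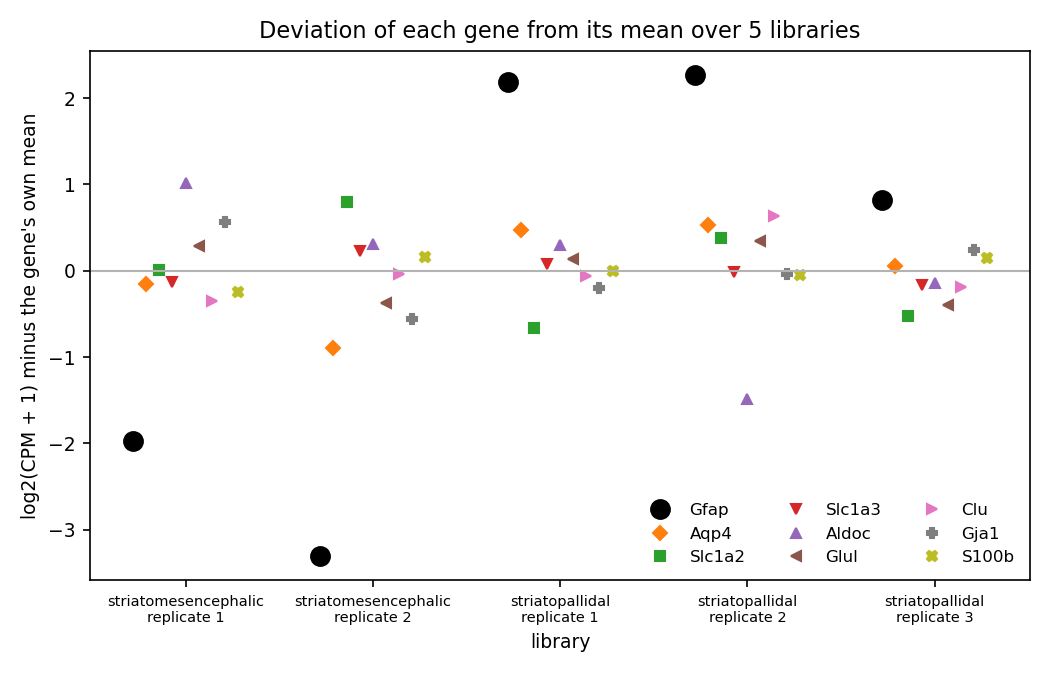
Deviation of log2(scaled CPM + 1) from the mean of the same gene over the 5 libraries (vertical axis) by library (horizontal axis), with 1 marker a gene. The large black points of Gfap lie below the other genes in both striatomesencephalic libraries and above them in all 3 striatopallidal libraries, with a range of 5.57 between the extremes.

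The spread over libraries differed widely among the 9 genes. Between the highest and the lowest library, log2(scaled CPM + 1) ranged over 5.57 for Gfap and over 2.50 for Aldoc. It ranged over 1.45 for Slc1a2, 1.43 for Aqp4, 1.13 for Gja1, 0.99 for Clu, 0.74 for Glul, 0.40 for S100b and 0.40 for Slc1a3. The median over all genes tested was 1.89, so Gfap and Aldoc varied more than the typical gene and the other 7 less. Gfap reached percentile 98.6 of all genes tested, whereas Slc1a3 and S100b were at percentiles 1.24 and 1.33. Genes were not matched on abundance in this comparison, and its part was not tested. Distance between 2 genes was taken as the root mean square difference of their centred profiles over the 5 libraries. The 28 pairs without Gfap had distances from 0.16 to 1.18 (median 0.54), and the 8 pairs with Gfap from 1.77 to 2.85 (median 2.26). Slc1a3 and S100b were the closest pair at 0.16, and Aqp4 was the nearest of the 8 to Gfap at 1.77.

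**Figure D4:**
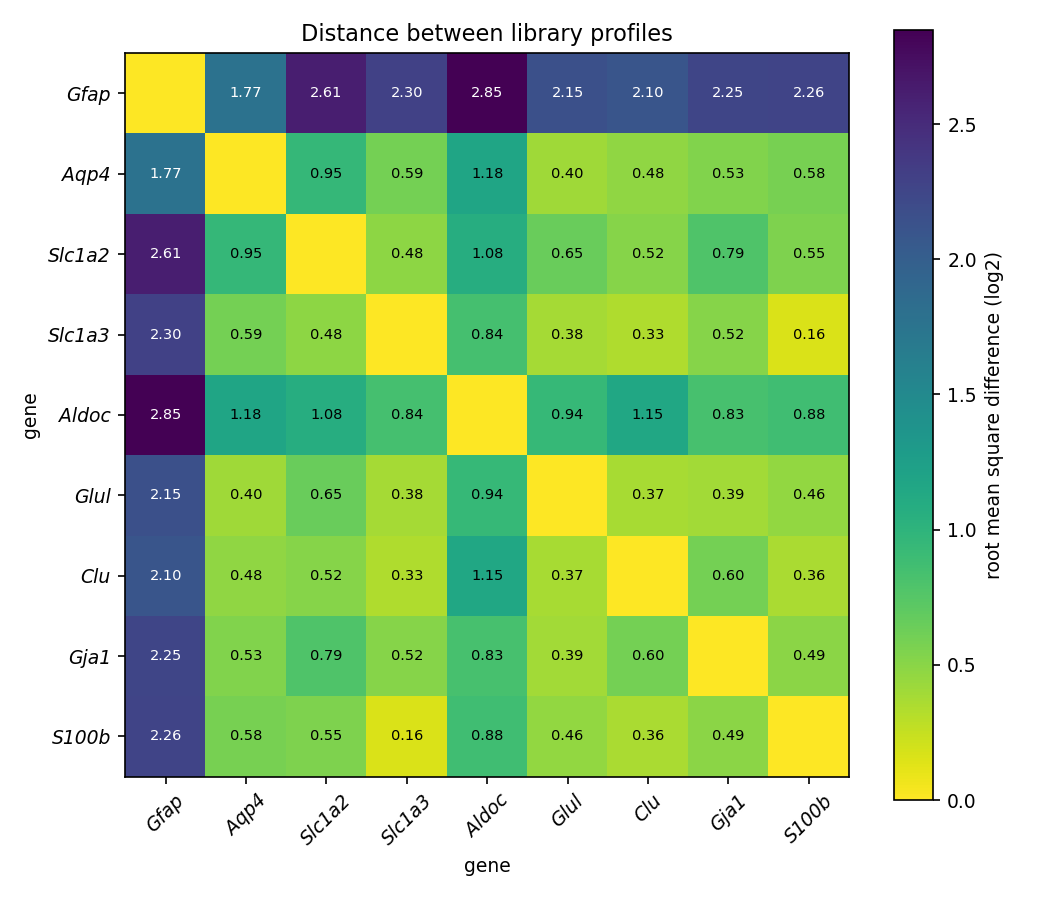
Root mean square difference, in log2 units (colour and printed value), between the centred library profiles of each pair of the 9 genes (both axes). The row of Gfap runs from 1.77 to 2.85, and the remaining pairs lie between 0.16 and 1.18.

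By the same measure, the 5 genes with a symbol whose profiles lay closest to that of Gfap over the 5 libraries were Htr4, Me2, Chrm3, Grm8 and Lysmd1. Htr4, a serotonin receptor gene, was at a distance of 0.55, with 8.87 and 1.90 CPM against 87.2, 189 and 78.0 CPM. Me2, the gene of a mitochondrial malic enzyme, was at 0.61, with 7.53 and 6.50 CPM against 107.9, 113 and 47.9 CPM. Chrm3, a muscarinic receptor gene, was at 0.66, with 1 and 4 counts in striatomesencephalic libraries and 740, 377 and 471 counts in striatopallidal libraries. Grm8, a metabotropic glutamate receptor gene, was at 0.73, with 1.97 and 1.59 CPM against 71.8, 21.9 and 12.7 CPM. Lysmd1 was at 0.79, with 3.55 and 2.08 CPM against 51.9, 27.5 and 12.3 CPM. All 5 were low in both striatomesencephalic libraries and higher in the 3 striatopallidal libraries, which the choice by profile fixes. Each had an adjusted p of 0.779 with edgeR, and none is in the astrocyte lists used here.

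Further astrocyte genes were divided in direction. Of 44 listed, 37 were matched and tested, and 16 were higher and 21 lower in striatomesencephalic libraries, with a median log2 fold change of -0.14. The median was 0.045 without striatomesencephalic replicate 2 and 0.073 without striatopallidal replicate 2. With edgeR 0 passed over all genes and 1 had an unadjusted p under 0.05, as 6.07% of all genes tested had. Itih3, a hyaluronan-binding inhibitor chain, stood at 50.5 and 47.8 CPM against 17.1, 11.4 and 11.1 CPM, with a log2 fold change of 1.83 ± 0.61 (SE; edgeR adjusted p = 0.779). Its groups did not overlap, with the higher values in the libraries that were low in Gfap. Mt3, a metallothionein gene, had 2.21 and 8.09 CPM against 18.8, 57.2 and 12.002 CPM, with a log2 fold change of -2.75 ± 1.18 (SE), and -1.48 without striatopallidal replicate 2. Kcnj10, the potassium channel Kir4.1 of astrocytes, reached 22.4 CPM in striatopallidal replicate 3 and at most 0.503 CPM in the other 4 libraries, so its log2 fold change of -6.26 rests on 1 library, without which it was not kept by the filter.

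Genes known to rise in reactive astrocytes were followed next, as Gfap is the best known of them. Of 34 listed, 18 were matched and 17 tested, 6 higher and 11 lower in striatomesencephalic libraries, with a median log2 fold change of -0.29. With edgeR 0 passed over all genes and 3 had an unadjusted p under 0.05, each lower in striatomesencephalic libraries. Of all genes tested, 6.07% had such a p, and 3.14% had it in this direction. S100a10, an annexin partner, had 0.192 and 0.133 CPM against 1.72, 2.14 and 13.4 CPM (log2 fold change -5.12 ± 1.61, SE). DESeq2 called it (adjusted p = 0.0160), and 2.14 CPM or less in 4 libraries makes it a low gene. Ptgs2, the inducible cyclooxygenase gene, which neurons can also transcribe, had 11.03 and 20.03 CPM against 74.8, 19.0 and 107.6 CPM (log2 fold change -2.08 ± 0.81, SE), and its groups overlapped in plain CPM. Amigo2, an adhesion protein gene, rested on striatopallidal replicate 2, with 1037 CPM there and 6.81 to 15.98 CPM elsewhere. Its log2 fold change was -5.85, and -0.68 without that library. The groups of 4 of the 17 reactive genes did not overlap in scaled CPM, a share near the 21.6% of all genes tested. The 4 genes were S100a10, Ptgs2, Amigo2 and Fbln5, an elastic fibre protein gene. Fbln5 ran opposite to Gfap, with 23.6 and 2.17 CPM against 1.55, 0.00 and 0.758 CPM and a log2 fold change of 4.13 ± 1.77 (SE), or 1.61 without striatomesencephalic replicate 1. Genes with overlapping groups included Stat3 at 76.5 and 85.5 CPM against 73.2, 52.4 and 82.6 CPM, and Cd44 at 8.25 and 1.37 CPM against 8.93, 19.996 and 5.40 CPM.

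Other intermediate filament genes were considered because Gfap is a filament protein. Of 14 listed, 9 were matched and 8 tested, 2 higher and 6 lower in striatomesencephalic libraries, with a median log2 fold change of -1.16. With edgeR 0 passed over all genes and 2 had an unadjusted p under 0.05, as 6.07% of all genes tested had. The groups of 3 of the 8 did not overlap in scaled CPM, where 21.6% of all genes tested did not. They were Ina and Lmna, lower in striatomesencephalic libraries, and Synm, higher there. Ina, the gene of neuronal alpha-internexin, had 81.6 and 67.9 CPM against 253, 298 and 128 CPM, with a log2 fold change of -1.75 ± 0.58 (SE; edgeR adjusted p = 0.779). Lmna, a nuclear lamin gene, had 3.21 and 2.65 CPM against 10.7, 93.7 and 13.03 CPM, or -4.06 ± 1.41 (SE), and -1.93 without striatopallidal replicate 2. DESeq2 called Lmna (adjusted p = 0.0277). Nefh, the heavy neurofilament gene, had 4.99 and 13.3 CPM against 109, 1.53 and 32.8 CPM, with overlapping groups and a log2 fold change of -2.27, or -0.89 without striatopallidal replicate 1. Synm, whose product pairs with Gfap protein in astrocytes, had 5.56 and 5.88 CPM against 5.03, 0.806 and 2.01 CPM, with a log2 fold change of 1.18 ± 1.06 (SE), of opposite sign to Gfap. It was 1.91 without striatopallidal replicate 1 and 0.80 without striatopallidal replicate 2. Vim was not matched.

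Genes that work beside the transporters and channels were followed in the same way. Of 9 glutamate and glutamine handling genes tested, 4 were higher and 5 lower in striatomesencephalic libraries (median -0.10), with 0 at an unadjusted p under 0.05. The lowest value there was that of Got2, an aminotransferase gene, at -2.40, and it was 0.091 without striatopallidal replicate 2, which held 8507 CPM against 735 to 888 CPM elsewhere. Slc38a3, a glutamine transporter gene, had 1.87, and -0.61 without striatomesencephalic replicate 2. Of 8 genes of endfoot water and potassium handling, 3 were higher and 5 lower (median -0.30), again with 0 at an unadjusted p under 0.05. Dtna, the gene of the anchoring protein alpha-dystrobrevin, had 202 and 100.4 CPM against 318.5, 311 and 239 CPM, with a log2 fold change of -1.05 ± 0.48 (SE). Like Aqp4, it had its lower values in both striatomesencephalic libraries and did not pass. Aqp9, a glycerol and water channel gene, had 4.89 and 0.398 CPM against 2.18, 0.00 and 0.357 CPM, and the sign of its log2 fold change turned from 1.74 to -0.93 without striatomesencephalic replicate 1. Of 8 other gap junction and pannexin genes, 1 was higher and 7 were lower (median -0.43), with 0 at an unadjusted p under 0.05. Panx1, a pannexin gene, had 7.29 and 40.9 CPM against 45.04, 173.5 and 57.6 CPM, or -2.17 ± 1.08 (SE). Its groups overlapped in scaled CPM, and its log2 fold change ran from -3.92 without striatomesencephalic replicate 2 to -1.004 without striatopallidal replicate 2. Gjd2, the main neuronal connexin, had 38.5 CPM in striatopallidal replicate 2 and at most 0.576 CPM elsewhere, so its log2 fold change of -4.95 turned to 0.92 without that library. Gjb6, the second connexin of astrocytes, had 12.9 and 4.997 CPM against 21.6, 47.0 and 10.4 CPM, with overlapping groups. Over the 8 lists of related genes together, 6 of 102 genes tested had an unadjusted p under 0.05, 1 higher and 5 lower, a share near the 6.07% of all genes. Besides S100a10 and Lmna, DESeq2 called none of them, and the exact test of edgeR and limma voom called 0. The summed plain CPM of the reactive, filament, glutamate and gap junction lists did not overlap between the groups. For the filament list, 499 CPM in striatomesencephalic replicate 1 lay next to 501 CPM in striatopallidal replicate 3. The separation depended on the scale for most of these lists. Once each sum is divided by the scaling factor of its library, the reactive, filament and glutamate groups overlap. Among these lists, only the gap junction groups stay apart. The reactive sum, for example, was 315 CPM in striatomesencephalic replicate 2 (factor 1.02) against 328 CPM in striatopallidal replicate 1 (factor 1.14). In striatopallidal replicate 2 the reactive sum was 1363 CPM, with Amigo2 at 1037 CPM, and it was 298 to 404 CPM elsewhere.

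Markers of other cells give the surroundings of these values. Oligodendrocyte markers (12 of 12 matched) summed to 6044 and 7513 CPM in striatomesencephalic and 7328, 7110 and 5437 CPM in striatopallidal libraries, with Mbp at 2289 to 3767 CPM. Oligodendrocyte precursor markers (4 of 7) summed to 256 and 187 CPM against 278, 176 and 285 CPM. Pdgfra was at 27.8 to 44.9 CPM and Cspg4 at 0.672 to 22.2 CPM. Vascular markers (8 of 11) summed to 62.7 and 126 CPM against 89.2, 163 and 88.8 CPM, with Flt1 at 19.5 and 32.7 against 40.7, 65.3 and 48.4 CPM and Cldn5 unmatched. Microglial markers (5 of 10, without Aif1 and Cx3cr1) summed to 35.8 and 20.6 CPM against 104, 36.4 and 31.5 CPM. Ependymal markers (2 of 5, without Foxj1) summed to 15.02 and 48.3 CPM against 25.2, 25.0 and 6.65 CPM. Each of these sums overlapped between the groups, and so did those of neuronal and spiny neuron markers. Within the neuronal list, 2 of 10 genes had an unadjusted p under 0.05 with edgeR, both lower in striatomesencephalic libraries, and 0 passed over all genes. Of all genes tested, 6.07% had such a p, and 3.14% had it in this direction. Syn1, a synaptic vesicle protein gene, stood at 19.5 and 40.9 CPM against 202, 510 and 264 CPM, with a log2 fold change of -3.62 ± 0.77 (SE). Snap25, a vesicle fusion gene, stood at 548 and 532.5 CPM against 991, 635 and 1414 CPM, with a log2 fold change of -0.94 ± 0.34 (SE). The groups of both did not overlap, in the direction of Gfap. In scaled CPM the groups did not overlap for 3 of the 10 neuronal genes, where 21.6% of all genes tested did not. The third was Gad1, which ran the other way, at 448 and 396 CPM against 346, 285 and 348 CPM. Its log2 fold change was 0.29 ± 0.32 (SE). Of the 10 neuronal genes, 3 were higher and 7 lower in striatomesencephalic libraries. Rbfox3 stood at 15.2 to 31.9 CPM, Ppp1r1b at 1045 to 2143 CPM and Pde10a at 4290 to 7580 CPM. The sum of 37 further astrocyte genes overlapped as well, at 4592 and 3423 CPM against 4252, 5055 and 3805 CPM. All 5 tested microglial genes had negative log2 fold changes. That of Tmem119 was -3.62 ± 1.34 (SE), with 1.103 and 0.486 CPM against 2.22, 12.6 and 10.8 CPM. Csf1r, at -0.044, turned to 0.83 without striatomesencephalic replicate 2, and C1qa, at -0.11, to 1.19 without striatopallidal replicate 1. With edgeR 0 of these 5 genes passed over all genes and 1 had an unadjusted p under 0.05. Negative values were also held by 4 of 4 oligodendrocyte precursor genes tested (median -0.70) and by 9 of 12 oligodendrocyte genes (median -0.98). The part of these cells in the Gfap values was not tested.

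**Figure D5:**
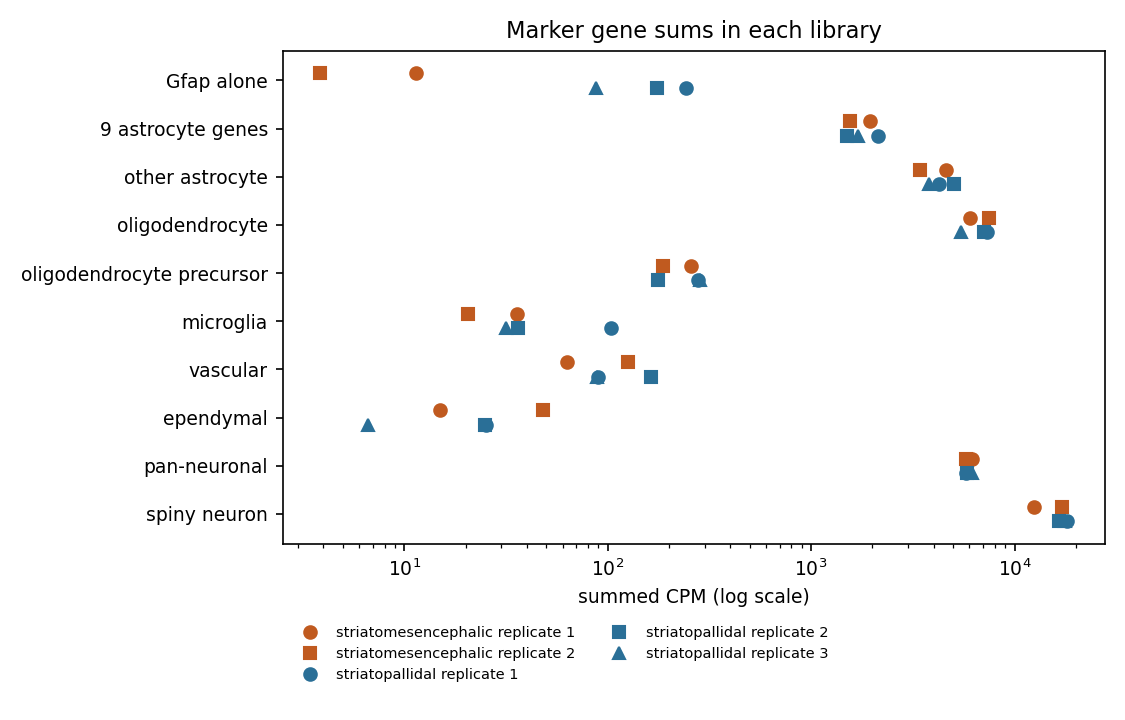
Summed plain CPM on a log axis (horizontal) for Gfap alone, the 9 astrocyte transcripts and lists of marker genes of other cells (vertical), with 1 point a library and colours for the 2 groups. Gfap alone separates the groups, from 3.85 and 11.5 CPM to between 87.7 and 243 CPM, while the 9 transcripts together and each marker sum overlap.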

How the data were processed

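RNA was measured in 5 libraries grouped by the cell type in the labels. RNA was extracted with TRIzol, and its polyadenylated part was copied with the REPLI-g Single Cell kit, per the labels' protocols. TopHat2, HTSeq, edgeR and limma with build Rnor_6.0 are named in the submitters' processing notes, without versions or roles. The labels do not say whether counting used strand. Read counts were deposited by the authors per Ensembl gene for each library. Their deposited comparison gives a log2 fold change and a p-value for 12054 genes and pairs identifiers with symbols. Another 10 columns of normalized values were not used.

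Counts were filtered by filterByExpr, scaled by TMM and tested over all 13811 genes with glmQLFit and glmQLFTest (edgeR 4.0.16, R 4.3.3), with Benjamini-Hochberg adjustment at 0.05. Standard errors were taken as the size of the fold change over the square root of F. DESeq2 1.42.0, the exact test of edgeR and limma voom 3.58.1 were alternatives, with other scalings and filters, a replicate block and single libraries left out. Profiles used a pseudocount of 1 CPM. With 2 libraries against 3, single values were given no permutation test. Members and lists were chosen with earlier results of these data known. Named were all 9 members, the 3 genes with the smallest p of each related list, the first 2 markers of each other cell type where matched, and the 5 profiles nearest to Gfap. Stat3, Cd44, Synm, Tmem119, Fbln5, Syn1 and Aldoa were named after their values were seen, and 3 genes that the rule takes are not reported here. Sequences came from RefSeq, build GRCr8.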

Additional observations from a re-analysis of the deposited data

How the results depend on the processing

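Gfap kept a negative log2 fold change in all 14 alternatives, from -5.52 to -3.98, with adjusted p-values from 5.84e-06 to 0.978. Its call depended on the tool: edgeR's quasi-likelihood test called 0 of the 9 genes, 0 of the related genes and 0 of all genes. DESeq2 called 1, 2 and 219, and the exact test of edgeR 1, 0 and 45. The cause was not tested. All alternatives within the quasi-likelihood test, and limma voom, called 0 genes, so the counts without 1 library each ran from 0 to 0. Aldoc, Aqp4, Clu and Slc1a2 kept their sign in all 14. Glul turned to 0.025 with library totals only, 0.24 without striatomesencephalic replicate 2 and 0.094 without striatopallidal replicate 2. Gja1 turned to -0.0052 with limma voom and ran from -0.57 to 0.56 without 1 library each. S100b ran from -0.28 to 0.13 without 1 library each, and Slc1a3 from -0.094 to 0.26. Gfap minus the median of the other 8 ran from -5.44 to -4.13 without 1 library each.

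With the replicate block, 0 genes were called and Gfap had -5.09 (edgeR adjusted p = 0.786). In that fit striatopallidal replicate 3 has no partner and adds nothing to the fold change. Libraries were paired here by their replicate number alone. The correlation of their deviations from group means was -0.026 for replicate 1 and -0.037 for replicate 2. With 2 striatomesencephalic libraries, the deviations of 1 mirror those of the other. These values therefore cannot show whether libraries with the same number share an animal or a batch. With 2 libraries in 1 group, intervals are wide: that of Aldoc spans -0.44 to 2.40, so changes of either sign remain possible.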

Other observations

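The glycolytic genes beside Aldoc were divided in direction. Of 16 gene identifiers tested, 9 were higher and 7 lower in striatomesencephalic libraries, with a median log2 fold change of 0.022, and 0 had an unadjusted p under 0.05 with edgeR. Aldoa, the aldolase of most tissues, had 287 and 353 CPM against 479, 298 and 379 CPM, with a log2 fold change of -0.32 ± 0.33 (SE). Pkm, the pyruvate kinase gene, was counted under 2 identifiers, with log2 fold changes of -0.90 and 0.10. Pgk1, the phosphoglycerate kinase gene, had a log2 fold change of -0.59 ± 0.46 (SE).

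Of 7 relatives of S100b, 4 were matched and tested. Beside S100a10, S100a1 had 10.2 and 51.0 CPM against 2.81, 0.121 and 12.2 CPM, and S100a16 had 54.7 and 48.5 CPM against 41.2, 4.96 and 6.34 CPM. Their log2 fold changes were 2.67 ± 1.51 and 1.63 ± 0.94 (SE). That of S100a1 ran from 1.05 without striatomesencephalic replicate 2 to 4.49 without striatopallidal replicate 3, and that of S100a16 reached 3.01 without striatopallidal replicate 1. Neither passed, and both had the opposite sign to S100a10.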
